A study of Homo sapiens with 6 samples.

Results

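Replication-dependent histone genes were examined in xenograft tumors of the MDA-MB-231 line, triple-negative human breast cancer cells, by comparing the tumor core (TC) with the tumor margin (TM). The members are the protein-coding genes of the histone clusters, taken from the expression matrix by gene ID and symbol, whether in the older naming (HIST1H, HIST2H, HIST3H) or the newer one (H1-1 to H1-6, H2AC, H2BC, H3C, H4C). The rule found 70 of the 60671 annotated genes, and 18 further genes with such names were left out because they are not annotated as protein-coding. The 70 comprise 6 linker histone (H1), 17 H2A, 18 H2B, 14 H3 and 15 H4 genes. Of these, 55 lie on chromosome 6, 14 on chromosome 1 and 1 (H4C16) on chromosome 12.

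The matrix held 3 TC and 3 TM samples. All came from wild-type MDA-MB-231 cells injected with Matrigel, without a further treatment, into the mammary fat pads of female NSG mice aged 6 to 8 weeks, an immunodeficient strain without mature T, B or NK cells that keeps its fibroblasts, vessels, muscle and macrophages. The study names 3 mice per group, but the labels do not tie a sample to a mouse, so p-values measure the spread between these samples. The unit was TPM, a transcript abundance scaled to a fixed total per sample and corrected for transcript length. Levels of different genes in TPM can be compared only where their RNAs were captured alike. TPM keeps no sequencing depth, and precision was therefore judged from the replicates alone.

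Nucleosomes are built from H2A, H2B, H3 and H4, and H1 binds the DNA that links them. The clustered genes supply most histone protein during S phase, when newly copied DNA has to be packaged. Their mRNAs are unusual in that they normally end in a stem-loop, bound by the protein SLBP, in place of a poly(A) tail, and they are degraded when DNA synthesis stops. Some of the genes can also give polyadenylated transcripts in differentiated or slowly dividing cells. The replication-independent histones, such as H3.3 and H2A.Z, come from genes outside the clusters with ordinary polyadenylated mRNAs. The library kit was given as TruSeq RNA on total RNA, and the sources used here do not state whether poly(A)-tailed RNA was selected, so the levels below are those of the deposited matrix and not of a method known to capture every histone mRNA.

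The element that defines these mRNAs was located in the reference transcripts (GENCODE v29, GRCh38). The search pattern was GGNNNNTNNNANNNCC, 16 bases long, in which the first 6 bases had to pair with the last 6 (G-T pairs allowed) around a loop of 4 bases. It was found in 32 members, and in 129 of 19599 other protein-coding genes (0.658%). The count is limited by the annotation, since 34 members have transcript models that stop at the stop codon and only 36 have any 3′ part. The elements of 6 members with values described below are shown to let the classes be compared, with the stem-loop in capitals and flanking bases in lower case. The H2BC6 transcript shown ends shortly after the element, but the other of its 2 coding transcripts runs 430 bases past it.
H2AC19: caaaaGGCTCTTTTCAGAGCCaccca
H2BC5: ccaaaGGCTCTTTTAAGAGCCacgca
H2BC6: ccaaaGGCTCTTTTCAGAGCCa
H3C10: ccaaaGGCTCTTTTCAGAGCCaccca
H4C11: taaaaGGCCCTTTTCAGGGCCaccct
H4C14: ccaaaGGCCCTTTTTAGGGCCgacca
The form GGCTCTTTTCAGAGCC occurred in 6 H2A, 8 H2B and 3 H3 genes. All 8 H4 elements found had a different stem, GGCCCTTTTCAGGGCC in 5 genes and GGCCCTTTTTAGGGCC in 3. The form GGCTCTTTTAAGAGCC occurred in 3 H2B and 2 H3 genes.

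The promoters of the classes also differed in their letters. In the 250 bases before the start (RefSeq, GRCh38.p14), available for 65 members, the TATA box TATAAA was present on either strand in 66.2% of members and in 11.1% of 27305 promoters of all genes. CCAAT was present in every promoter of H1, H2A, H2B and H3 genes that was searched but in 3 of 13 H4 promoters, against 33.0% of all promoters. The octamer ATTTGCAT, the site bound by OCT1 in H2B promoters, was in 14 of 18 H2B and 11 of 16 H2A promoters, in 1 of 12 H3 promoters and in 0 of 6 H1 and 0 of 13 H4 promoters, against 1.66% of all promoters. The promoters of the members with the highest means, H2BC12 (chr6:27146859-27147108, minus strand) and H1-2 (chr6:26056471-26056720, minus strand), are shown with every match of these 3 motifs on either strand in capitals. The TATA box and its reverse complement overlap once in H2BC12.
H2BC12: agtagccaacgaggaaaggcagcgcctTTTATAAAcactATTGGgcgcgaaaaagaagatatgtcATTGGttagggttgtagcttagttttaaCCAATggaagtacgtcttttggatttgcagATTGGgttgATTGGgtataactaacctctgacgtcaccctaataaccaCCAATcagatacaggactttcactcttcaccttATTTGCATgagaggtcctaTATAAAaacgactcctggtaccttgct
H1-2: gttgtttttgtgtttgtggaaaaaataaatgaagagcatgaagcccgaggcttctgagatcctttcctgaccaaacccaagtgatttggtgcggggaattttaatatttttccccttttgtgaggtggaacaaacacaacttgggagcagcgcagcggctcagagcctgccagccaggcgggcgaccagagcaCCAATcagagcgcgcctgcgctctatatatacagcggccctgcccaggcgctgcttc
H1-2 held a single CCAAT and neither of the other motifs. A match is a description of the sequence and was not tested against the RNA values.

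Clustered histone genes took a small share of the deposited TPM. Their summed level was 190.5, 222 and 361 TPM in TC replicates 1, 2 and 3 and 227, 272 and 283 TPM in TM replicates 1, 2 and 3, or 0.0191% to 0.0362% of all TPM. TC replicates 1 and 2 thus lay below every TM sample and TC replicate 3 above every one. The group means of 258 ± 90.8 and 261 ± 29.5 TPM (SD, n = 3) therefore hide a wide spread in TC. After median-of-ratios rescaling the sums were 187, 237 and 424 in TC and 195, 256 and 278 in TM. TC replicate 2 was then no longer below every TM sample. By contrast, 12 replication-independent histone genes summed to 2480 to 3113 TPM in TC and 2181 to 3241 TPM in TM. Their mRNAs ordinarily carry a poly(A) tail, and whether tailless mRNAs were captured alike is not known, so these sums may not be comparable. The 5 highest clustered members, H2BC12, H1-2, H2AC19, H4C12 and H4C11, held 52.5% to 62.2% of the clustered sum in each sample. In bulk tissue, fewer cells making these mRNAs and less mRNA per cell cannot be told apart.

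Many members were low or at 0 in every class. Of the 70 members, 35 passed the filter for testing (1 TPM or more in 3 or more samples), 15 were above 0 but below that filter, and 20 were listed at 0 in all 6 samples. Among nuclear protein-coding genes as a whole, 15.04% were listed at 0 in all 6 samples. Those tested were 2 of 6 H1, 11 of 17 H2A, 10 of 18 H2B, 6 of 14 H3 and 6 of 15 H4 genes. The median of the tested members' mean TPM was 3.08, with a range from 0.973 to 55.5, and 5 exceeded 10 TPM. Members below the filter had means of at most 1.00 TPM.

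The classes were summed next, because near-identical copies can exchange reads and a sum over a class is less sensitive to that than any single gene. The H2B sum was 60.95, 67.6 and 89.4 TPM in TC replicates 1, 2 and 3 and 92.2, 91.65 and 108 TPM in TM. It was the only class sum whose groups did not overlap, with means of 72.6 ± 14.9 and 97.5 ± 9.56 TPM (SD, n = 3), although the gap between TC replicate 3 and the lowest TM sample was small. Most of the H2B sum was the single gene H2BC12, described below, so the sum largely repeats the values of that gene. Among single tested genes, 18.9% were lower in TC without overlap. After median-of-ratios rescaling the H2B sums were 59.8, 72.0 and 105 in TC and 79.1, 86.2 and 106 in TM, and the groups overlapped.

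The other class sums overlapped. H1 summed to 33.3, 42.75 and 77.0 TPM in TC and to 29.5, 42.6 and 44.1 TPM in TM. H2A summed to 45.1, 47.4 and 97.4 TPM in TC and to 51.7, 67.7 and 63.1 TPM in TM. H4 summed to 34.6, 49.98 and 66.9 TPM in TC and to 36.9, 46.2 and 54.2 TPM in TM. In each of these classes TC replicate 3 was the highest of all 6 samples. H3 was the lowest class, at 16.4, 14.6 and 30.5 TPM in TC and 16.9, 23.7 and 13.2 TPM in TM, again with TC replicate 3 highest. No test was applied to the sums.

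**Figure D1:**
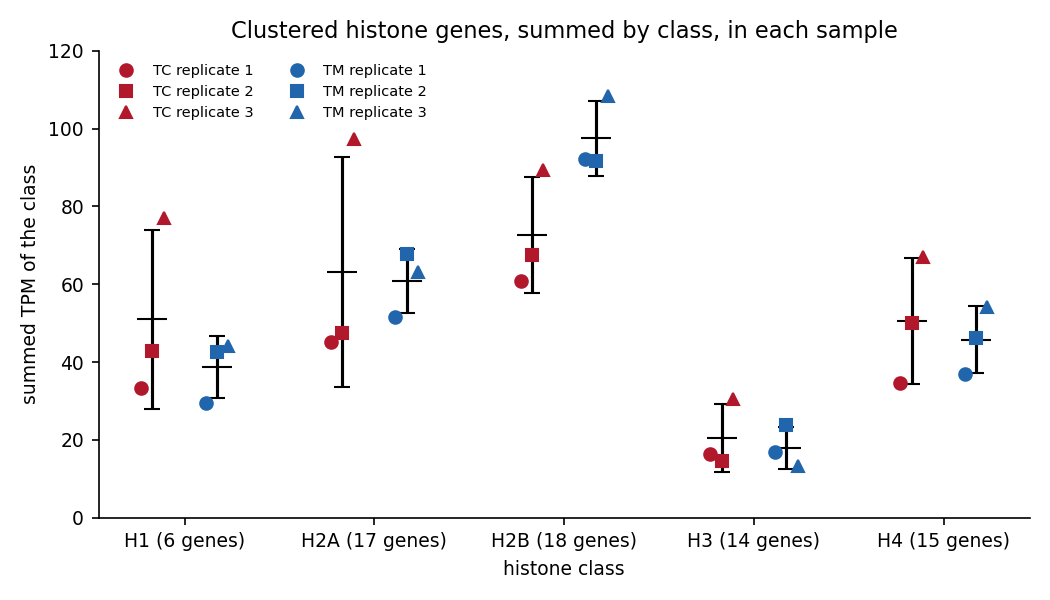
Summed TPM (vertical axis) of the genes of each histone class in the 3 TC (red) and 3 TM (blue) samples, with the marker shape giving the replicate and black bars the mean and SD. TC replicate 3 is the highest sample for H1, H2A, H3 and H4, and the H2B sums are the only ones that do not overlap between the groups.

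Single members were then compared between TC and TM with limma, fitted to log2(TPM + 1) of 13861 genes. The number of members called at an adjusted p-value under 0.05 was 0 of 35, where 0.137% of all tested genes were called, made up of 0.00721% that were higher and 0.13% that were lower in TC. Below 0.05 without adjustment, 2 members were lower in TC, both H2B genes, and 0 were higher, where 14.2% of all tested genes were lower and 1.93% were higher. The same 2 members were the ones whose groups did not overlap, against 18.9% of all genes in that direction and 3.28% in the other. Of the 2, H2BC6 passed the filter only through its TM values, as described below. By sign, 14 members were higher and 21 lower in TC, beside 4578 and 9283 of all tested genes. After median-of-ratios rescaling these counts were 22 and 13, beside 7774 and 6087. The members' median log2 difference was -0.070, compared with -0.14 over all tested genes. No test was applied to these counts.

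These counts depended on scaling and on single samples. After median-of-ratios rescaling the median of all tested genes moved to 0.049 and that of the members to 0.065, and after quantile normalization the 2 medians were 0.014 and 0.095. Without TC replicate 3 the members' median was -0.26, with 5 members (14.3%) lower and 0 higher below an unadjusted limma p-value of 0.05, compared with 10.03% lower, 1.76% higher and a median of -0.086 over all tested genes in the same fit, while without TC replicate 1 it was 0.033. No member was called under any alternative.

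H2BC6 (HIST1H2BE, ENSG00000274290, chr6:26172059-26184655, GRCh38), one of the genes for core histone H2B, had the smallest p-value. The TC values were 0.71, 0.63 and 0.46 TPM, and those of TM 2.93, 2.62 and 1.83 TPM. Every TM sample was thus above every TC sample, at low values throughout. All TC values were below 1 TPM, so the gene passed the filter only through its 3 TM samples. For such a gene the direction and the lack of overlap follow from the filter and are not separate evidence. The means were 0.60 ± 0.13 and 2.46 ± 0.57 TPM (SD, n = 3). The fitted log2 difference was -1.10 with an SE of 0.24 (limma unadjusted p = 0.00178, adjusted p = 0.0926). Its adjusted p-value ranged from 0.0653 to 0.300 over the alternatives that tested it, and its direction was the same in all of them.

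H2BC12 (HIST1H2BK, ENSG00000197903, chr6:27146418-27146798), the member with the highest mean, also had groups that did not overlap. It was at 38.5, 46.0 and 54.9 TPM in TC and at 62.9, 55.2 and 75.2 TPM in TM. TC replicate 3 and TM replicate 2 were nearly equal. The means were 46.5 ± 8.19 and 64.4 ± 10.1 TPM (SD, n = 3). The log2 difference of -0.47 (SE 0.18; adjusted p = 0.254, limma) became -0.26 after median-of-ratios rescaling, where the groups overlapped. H2BC12 alone made up most of the H2B sum.

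The remaining H2B genes were lower and varied within the groups. H2BC5 (HIST1H2BD) was at 9.79, 8.37 and 8.57 TPM in TC and 9.92, 9.21 and 11.8 TPM in TM (log2 difference -0.19, SE 0.19, and 0.0043 after median-of-ratios rescaling). H2BC15 was at 2.00, 2.01 and 4.74 TPM in TC and 6.18, 7.11 and 2.80 TPM in TM (log2 difference -0.70, SE 0.38, adjusted p = 0.426 by limma). For both genes the groups overlapped. H2BC11 was at 3.39, 2.06 and 6.39 TPM in TC and 1.72, 5.21 and 6.15 TPM in TM, a log2 difference of -0.094 (SE 0.45) that changed sign with the scaling. Of the 10 tested H2B genes, 9 had a negative difference and the median was -0.20, but after median-of-ratios rescaling or quantile normalization 5 were negative, with medians of -0.041 and -0.0093. Of all 13861 tested genes, 9283 were negative in the main fit, 6087 after median-of-ratios rescaling and 6695 after quantile normalization. H2BC1, H2BC7, H2BC8, H2BC9 and H2BC10 were listed at 0 throughout.

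**Figure D2:**
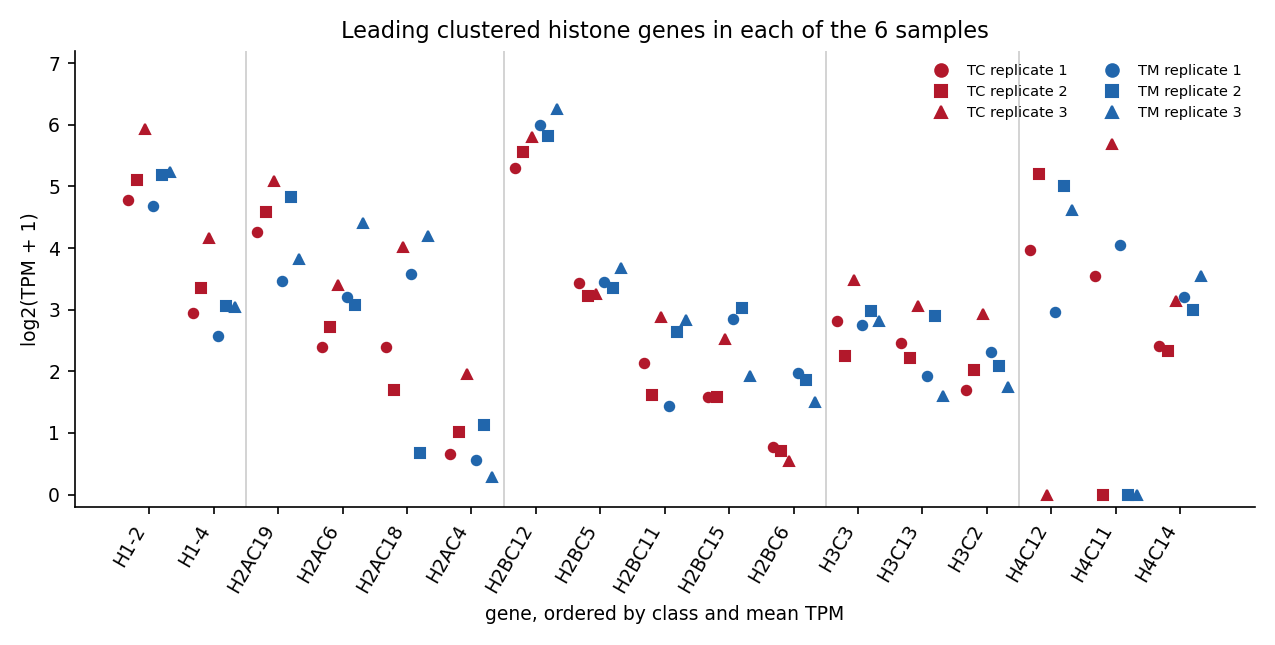
Levels of 17 clustered histone genes as log2(TPM + 1) (vertical axis) in the 3 TC (red) and 3 TM (blue) samples, grouped by class and ordered by mean TPM within it. H2BC12 and H2BC6 are the genes whose groups do not overlap, and H4C11 is at 0 in samples of both groups while H4C12 is at 0 only in TC replicate 3.

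Linker histones came from few genes. H1-2 (HIST1H1C, ENSG00000187837, chr6:26055787-26056428), a widely expressed H1 variant, was at 26.4, 33.6 and 60.1 TPM in TC and 24.6, 35.3 and 36.7 TPM in TM. Only TC replicate 3 stood outside the range of TM, and the log2 difference was 0.24 (SE 0.30; adjusted p = 0.756, limma), or -0.088 without that sample. H1-4 (HIST1H1E) was at 6.71, 9.19 and 16.9 TPM in TC and 4.96, 7.33 and 7.27 TPM in TM, a log2 difference of 0.59 (SE 0.33; adjusted p = 0.435, limma) with overlapping groups. H1-1, H1-3 and H1-5, also somatic H1 variants, were listed at 0 in all samples, and the testis variant H1-6 reached at most 0.23 TPM.

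Among H2A genes the level was led by H2AC19 (HIST2H2AA4, ENSG00000272196, chr1:149851061-149851624), at 18.1, 22.9 and 33.1 TPM in TC and 10.1, 27.3 and 13.1 TPM in TM (log2 difference 0.61, SE 0.36, adjusted p = 0.473 by limma). Its copy H2AC18 (HIST2H2AA3) was at 4.26, 2.24 and 15.2 TPM in TC and 10.9, 0.60 and 17.4 TPM in TM (log2 difference -0.11, SE 0.91), with a sign that changed with the pseudocount, the scaling and the sample left out. H2AC6 (HIST1H2AC) was at 4.23, 5.56 and 9.58 TPM in TC and 8.21, 7.45 and 20.3 TPM in TM, highest in TM replicate 3 (log2 difference -0.73, SE 0.40, adjusted p = 0.437 by limma). H2AC4 was at 0.58, 1.02 and 2.90 TPM in TC and 0.47, 1.18 and 0.22 TPM in TM (log2 difference 0.56, SE 0.39). The groups overlapped for all 4 genes. Over the 11 tested H2A genes the differences ran from -0.73 to 0.61, with 5 positive and 6 negative, or 7 and 4 after median-of-ratios rescaling. H2AC1, H2AC7 and H2AC8 were listed at 0.

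The H3 genes, which supply the replication-coupled H3.1 and H3.2 proteins, were low. H3C3 was at 6.03, 3.73 and 10.2 TPM in TC and 5.71, 6.87 and 6.08 TPM in TM (log2 difference -0.0036, SE 0.32, and 0.18 after median-of-ratios rescaling). H3C13, in the chromosome 1 cluster, was at 4.51, 3.65 and 7.32 TPM in TC and 2.81, 6.45 and 2.02 TPM in TM (log2 difference 0.44, SE 0.38, adjusted p = 0.638 by limma). H3C2 was at 2.24, 3.04 and 6.64 TPM in TC and 3.96, 3.26 and 2.35 TPM in TM (log2 difference 0.17, SE 0.35). TC replicate 3 was the highest sample for each of the 3 genes. The 6 tested H3 genes had differences between -0.070 and 0.44, of which 4 were positive, or 6 after median-of-ratios rescaling. The lowest was that of H3C10, whose stem-loop is shown above, at 0.23, 1.21 and 1.45 TPM in TC and 1.23, 0.91 and 0.81 TPM in TM, with overlapping groups. H3C4, H3C6, H3C7 and H3C8 were listed at 0, and H3-4, a testis H3 gene, was above 0 only in TM replicate 2, at 0.25 TPM.

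H4 is encoded by genes most of which give the same protein, and 2 of them gave the largest differences in both directions. H4C11 (HIST1H4J, ENSG00000197238, chr6:27824108-27824480) was listed at 10.7, 0 and 50.3 TPM in TC and at 15.5, 0 and 0 TPM in TM (log2 difference 1.73, SE 1.50, adjusted p = 0.638 by limma). H4C12 (HIST1H4K, ENSG00000273542, chr6:27831216-27831527) was listed at 14.6, 35.7 and 0 TPM in TC and at 6.76, 31.0 and 23.6 TPM in TM (log2 difference -1.14, SE 1.19, adjusted p = 0.703 by limma). Where one gene was listed at 0 the other held a high value, in 4 of the 6 samples. H4C14 (HIST2H4A) was at 4.31, 4.01 and 7.83 TPM in TC and 8.26, 6.96 and 10.7 TPM in TM, a log2 difference of -0.62 (SE 0.28; adjusted p = 0.331, limma) with overlapping groups. H4C4, H4C5, H4C6, H4C7 and H4C13 were listed at 0.

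The exchange between H4C11 and H4C12 went with identical coding sequences. Comparison of the 70 coding sequences found 4 identical pairs, H4C11 with H4C12, H2AC18 with H2AC19, H3C14 with H3C15 and H4C14 with H4C15. For the pair H4C11 and H4C12, the promoters (RefSeq, GRCh38.p14, chr6:27823842-27824091, plus strand, and chr6:27831561-27831810, minus strand) are also alike, with 5 different positions in 250. They are shown with those positions in capitals, to let a reader see how little separates the copies outside their coding parts.
H4C11: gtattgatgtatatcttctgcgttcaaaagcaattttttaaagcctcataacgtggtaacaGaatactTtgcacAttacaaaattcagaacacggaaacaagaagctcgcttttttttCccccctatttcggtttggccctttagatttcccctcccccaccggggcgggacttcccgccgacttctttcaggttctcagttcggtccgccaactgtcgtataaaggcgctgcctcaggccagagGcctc
H4C12: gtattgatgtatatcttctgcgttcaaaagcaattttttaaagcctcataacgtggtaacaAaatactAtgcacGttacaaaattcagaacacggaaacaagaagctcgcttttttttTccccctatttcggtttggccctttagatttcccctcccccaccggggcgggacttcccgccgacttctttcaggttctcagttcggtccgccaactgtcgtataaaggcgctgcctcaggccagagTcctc
When both were summed, the values were 25.3, 35.7 and 50.3 TPM in TC and 22.3, 31.0 and 23.6 TPM in TM, so that the highest sample was 2.26 times the lowest. The group means of the sum were 37.1 ± 12.6 and 25.6 ± 4.70 TPM (SD, n = 3), with overlap. The values of a single copy are therefore uncertain, and how reads were divided between copies was not tested.

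The other identical pairs behaved in different ways. H2AC18 and H2AC19 summed to 22.3, 25.1 and 48.4 TPM in TC and 21.0, 27.9 and 30.4 TPM in TM, whereas H2AC18 alone varied from 0.60 to 17.4 TPM. H3C14 and H3C15 were listed with the same value in every sample, between 0.31 and 0.86 TPM each. H4C14 and H4C15 summed to 4.31, 5.00 and 9.28 TPM in TC and 8.26, 7.80 and 12.1 TPM in TM. With the identical pairs summed before the limma fit, again 0 members were called and 2 were lower below an unadjusted p of 0.05 (an alternative chosen after the values were seen). H1 and H2B held no identical pair, and the coding sequence of a gene and its closest copy in the class had a median identity of 76.1% in H1 and 92.65% in H2B.

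**Figure D3:**
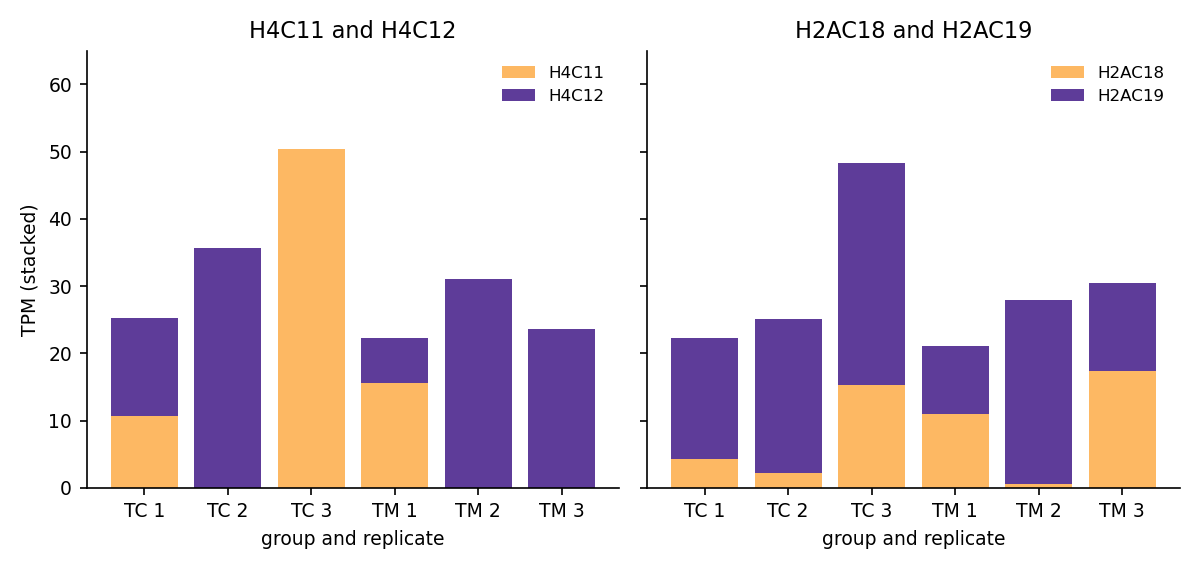
TPM (vertical axis, stacked bars) of the identical copies H4C11 and H4C12 (left) and H2AC18 and H2AC19 (right) in each TC and TM sample. The split between the copies changes from sample to sample, while the height of the stack varies 2.26-fold for H4C11 with H4C12 and 2.30-fold for H2AC18 with H2AC19.

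The position of the members listed at 0 was then examined. On chromosome 6, 15 consecutive members from H4C4 to H2BC10 (chr6:26188765-26273356, GRCh38, a span of 84592 bases) were listed at 0 in all 6 samples. All 21 annotated genes of GENCODE v29 between H2BC6 and H4C8 were listed at 0, including 6 that are not members, 5 of them pseudogenes. The members next to the span were not at 0: H2BC6 had values of 0.46 to 2.93 TPM and H4C8 of 0.92 to 8.57 TPM. The span holds genes of all classes, with H1-3 for H1, H2AC7 and H2AC8 for H2A, 4 H2B genes, 4 H3 genes and 4 H4 genes. Across the genome, 11 runs of at least 16 neighbouring protein-coding genes were listed at 0 in all samples, this one included, and 3 of them were made mostly of olfactory receptor genes. No depth is known, so a value of 0 does not show that a gene was silent, and whether the span was read by the quantification was not tested.

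**Figure D4:**
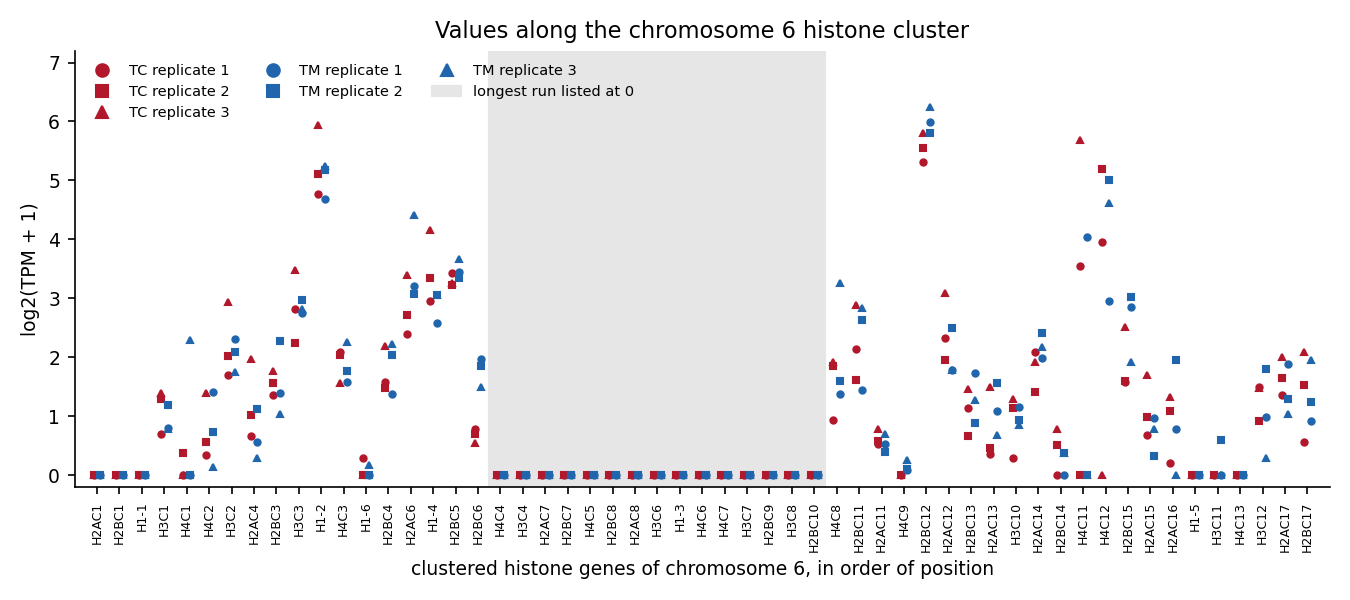
Levels of the 55 chromosome 6 members as log2(TPM + 1) (vertical axis) in order along the chromosome, for the 3 TC (red) and 3 TM (blue) samples. The grey band marks 15 consecutive members, H4C4 to H2BC10, at 0 in all 6 samples, between H2BC6 and H4C8, which are above 0.

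The remaining members at 0 were H2AC1, H2BC1 and H1-1 at one end of the chromosome 6 cluster, and H1-5 and H4C13 further along. H2AC1 and H2BC1 are the testis-specific copies. None of the 14 members on chromosome 1 was listed at 0 in all 6 samples.

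Median levels were alike for members with different transcript models. The 18 members with a stem-loop and a poly(A) signal (AATAAA or ATTAAA) in the last 40 bases of a transcript that runs at least 20 bases past it had a median of mean TPM of 0.987, the 14 with a stem-loop alone one of 0.913 and the 38 with no stem-loop in the model one of 1.01. The highest member of the first set was H2AC19, of the second H4C11 and of the third H2BC12. The summed levels of the 18 members were 42.8, 48.65 and 80.5 TPM in TC and 52.3, 62.1 and 79.1 TPM in TM. The models are those of GENCODE v29 and may differ from the annotation used for the matrix.

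TC replicate 3 was often the highest sample for these genes. It was the highest of the 6 samples in 15 of 35 tested members (42.9%), compared with 7.79% of all tested genes, and it exceeded both other TC samples in 27 members (77.1%), compared with 23.9% of all tested genes. After median-of-ratios rescaling it was highest in 54.3% of members and 23.0% of all tested genes. The share highest in TC replicate 3 was also 42.9% (6 of 14) among the RNAs without a poly(A) tail described at the end. Among 10 tested replication-independent histone genes this share was 10%, but 90% after median-of-ratios rescaling. In 90% of those 10 genes TC replicate 3 exceeded both other TC samples before rescaling. The pattern was thus not shown to be particular to the clustered histone genes. The median log2 difference between TC replicate 3 and the mean of the other 2 TC samples was 0.68 over the tested members and -0.15 over all tested genes. Members of every class were among the 15, such as H1-2, H2AC19, H2BC11, H3C3 and H4C11. Without this sample the log2 differences of H1-2, H3C2 and H4C12 changed sign, to -0.088, -0.19 and 0.39.

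**Figure D5:**
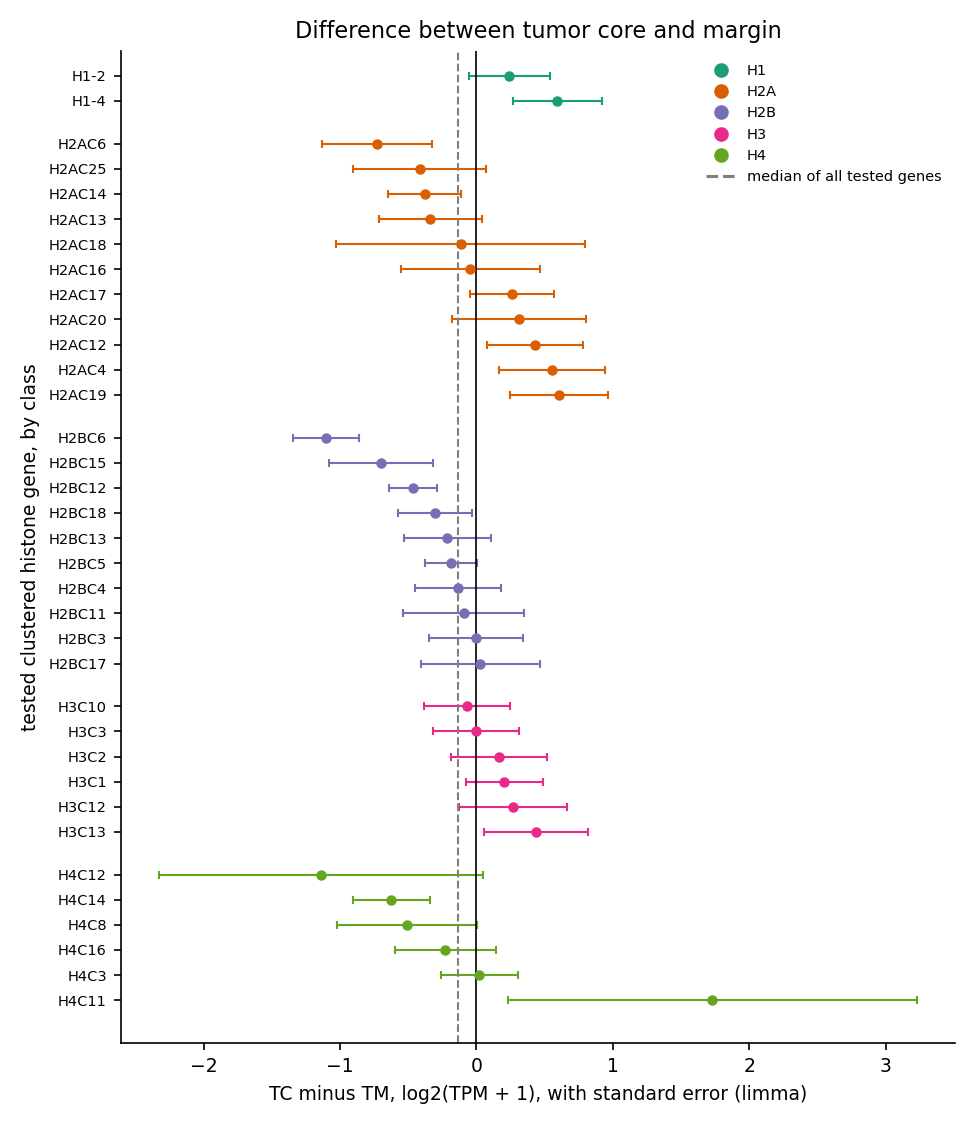
Log2 difference between TC and TM (horizontal axis, log2(TPM + 1), bars are limma standard errors) for the 35 tested members by class. Differences lie on both sides of 0 in H2A, H3 and H4, 9 of 10 H2B genes are below 0 (5 of 10 after median-of-ratios rescaling), and H4C11 and H4C12 have the widest bars. The dashed line marks the median of all tested genes, -0.14.

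Genes outside the clusters that act with these histones were then compared. In the main fit, 14.2% of all tested genes were lower and 1.93% higher below an unadjusted limma p of 0.05. After median-of-ratios rescaling these shares were 6.70% and 6.81%. Of 12 replication-independent histone genes 10 were tested, 0 were called by limma and 1 fell below 0.05 without adjustment. That gene, H2AX, whose protein is phosphorylated at DNA breaks and whose mRNA exists in both stem-loop and polyadenylated forms, was at 56.9, 66.3 and 79.95 TPM in TC and 100.3, 103 and 88.1 TPM in TM. Its groups did not overlap, and the log2 difference was -0.52 (SE 0.16; adjusted p = 0.155, limma), or -0.32 with overlapping groups after median-of-ratios rescaling. H2AJ (0.25), MACROH2A1 (-0.20, or 0.0079 after median-of-ratios rescaling) and H1-10 (0.36) had the next smallest p-values. The median over the list was 0.026, with 6 genes higher and 4 lower, and it was 0.24 with 9 higher and 1 lower after median-of-ratios rescaling. H3-3B, a gene for the replacement histone H3.3, was at 401 to 739 TPM, far above the clustered genes in this matrix, with the same limit on capture as above.

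The factors that transcribe and process histone mRNA were tested in 18 of 19 cases. None was called by limma. Below 0.05 without adjustment 3 (16.7%) were lower and 0 higher in TC, beside 14.2% and 1.93% of all tested genes. SYMPK, the scaffold of the cleavage complex shared with polyadenylated mRNAs, was at 46.6 ± 3.19 TPM in TC and 71.9 ± 2.18 TPM in TM (SD, n = 3, log2 difference -0.61, SE 0.12, adjusted p = 0.0843 by limma). SRRT, or ARS2, which links the cap-binding complex to histone mRNA processing, was at 68.4 ± 6.34 and 107 ± 12.5 TPM (log2 difference -0.63, limma adjusted p = 0.0926). UPF1, a helicase needed for histone mRNA decay, had a log2 difference of -0.50, as did the cap-binding subunit NCBP1 (SE 0.27; adjusted p = 0.414, limma). SLBP, named after its values were seen, was at 39.1, 33.1 and 38.4 TPM in TC and 44.0, 46.0 and 32.9 TPM in TM, with overlapping groups. The list median was -0.093, but 0.10 after median-of-ratios rescaling, where 2 genes (11.1%) were lower and 0 higher below that threshold.

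Histone chaperones, which carry new histones to DNA, were tested in 18 of 18 cases, with 0 called by limma. Below an unadjusted 0.05, 4 (22.2%) were lower and 0 higher, beside 14.2% and 1.93% of all tested genes. These 4 were CABIN1 of the HIRA complex (log2 difference -0.53), CHAF1A (-0.58), the large subunit of the replication-coupled assembly factor, HJURP (-0.46), the chaperone of centromeric H3, and the importin IPO4 (-0.64). CHAF1A was at 23.5, 23.9 and 26.9 TPM in TC and 41.9, 41.6 and 30.4 TPM in TM. The chaperone median was -0.26, and after median-of-ratios rescaling it was -0.060, with 0 genes lower and 1 (5.56%) higher below that threshold.

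S phase genes were read beside the histones because the clustered genes are transcribed in that phase. Of 38 DNA replication genes 0 were called by limma. Below an unadjusted p of 0.05, 17 (44.7%) were lower and 0 higher, beside 14.2% and 1.93% of all tested genes. A negative difference was found in 37 of 38, beside 9283 of all 13861 tested genes. The list median of -0.44 stands against -0.070 for the histone members and -0.14 for all tested genes. After median-of-ratios rescaling 3 (7.9%) were lower and 0 higher below that threshold, beside 6.70% and 6.81% of all tested genes. With this rescaling 32 of 38 were negative, beside 6087 of all 13861 tested genes. The list median was then -0.24, against 0.049 for all tested genes. They summed to 1588, 1510 and 1705 TPM in TC, below the TM sums of 2321, 2210 and 1792 TPM without overlap, but after median-of-ratios rescaling the sums were 1557, 1609 and 2001 in TC and 1991, 2078 and 1758 in TM and overlapped. The smallest p-values were those of GINS4 (log2 difference -0.77), UHRF1 (-0.76), POLD1 (-0.71) and MCM3 (-0.50). Of 20 mitosis genes 0 were called by limma. Below an unadjusted p of 0.05, 2 (10%) were lower, beside 14.2% of all tested genes. The median was -0.21, led by AURKB (-0.56), KIF20A (-0.42), CDC20 (-0.36) and PLK1 (-0.49). After median-of-ratios rescaling 0 mitosis genes were below that p, 10 of 20 were negative and the median was -0.0016. Whether the histone members and the replication genes differ in response was not tested.

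Other RNAs that lack a poly(A) tail, such as spliceosomal RNAs, RNase P RNA and 7SK, were read in the same libraries. Of 29 such genes 14 were tested and 8 were listed at 0 in all samples. The number called by limma was 0. Below an unadjusted p of 0.05, 4 (28.6%) were higher and 1 (7.14%) lower in TC, beside 1.93% and 14.2% of all tested genes. RNU4-1 was at 192, 108 and 240.05 TPM in TC and 25.4, 0 and 17.6 TPM in TM, and RNU4-2, a near-identical copy, at 172, 182 and 391 TPM in TC and 127, 45.1 and 17.6 TPM in TM. SNORD3A had a log2 difference of 2.37 (SE 0.68; adjusted p = 0.148, limma), and MALAT1, which ends in a triple helix in place of a tail, one of -2.57 (SE 0.46; adjusted p = 0.0813, limma). RNU4-1 was called higher without TM replicate 2 (limma adjusted p = 0.0311) and MALAT1 lower without TM replicate 3 (limma adjusted p = 0.0445). Of 13861 tested genes, 6 were called higher without TM replicate 2 and 15 lower without TM replicate 3. The list median was 0.68. Its sum was 1514, 925 and 1505 TPM in TC against 908, 665 and 1622 TPM in TM, so the groups overlapped. The part of tailless RNA capture in the histone values was not tested.

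Markers of the cell line and of other cells were read in the same samples. The line's markers VIM, CD44, EGFR, AXL and CAV1 summed to 4755 to 5653 TPM in TC and 4428 to 5883 TPM in TM, whereas ESR1, PGR, EPCAM and CDH1 summed to 3.87 to 6.02 TPM over all samples, nearly all of it EPCAM. Skeletal muscle markers (12 of 13 found, 2 tested, 0 called by limma) summed to 4.10 to 7.89 TPM in TC and to 184, 486 and 2.30 TPM in TM replicates 1, 2 and 3. With all samples the tested genes, ACTA1 and TNNC2, were not called (adjusted p = 0.356 and 0.378, limma). Without TM replicate 3, which had the lowest muscle sum, both were called lower in TC (smallest adjusted p = 0.00713, limma). That fit omits the TM sample in which both genes were as low as in TC, so its calls are not separate evidence. In that fit 15 of 13861 tested genes were called lower and 2 higher. Fibroblast markers (9 genes, 4 tested, 0 called, 2 lower in TC below an unadjusted p of 0.05) summed to 65.7, 123 and 224 TPM in TC and to 476, 1004 and 89.0 TPM in TM. TM replicate 3, the TM sample with the lowest muscle and fibroblast sums, had the highest H2B sum. The TC samples also had low muscle sums, but their H2B sums were lower, at 60.95, 67.6 and 89.4 TPM. A link between these values was not tested. Endothelial, macrophage, adipocyte and erythroid markers summed to at most 6.78, 109, 0.77 and 6.93 TPM. Most of the macrophage sum was CD68, at 84.8 to 94.2 TPM over all samples. The host cells are from the mouse while these genes are human, so the sums do not measure host cells directly. Whether mouse reads or tumor cells gave these values was not tested.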

How the data were processed

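RNA-seq of 3 tumor core (TC) and 3 tumor margin (TM) samples of MDA-MB-231 xenografts was used, grouped by the sample titles. According to the study's methods, the authors prepared libraries with the TruSeq RNA kit from total RNA, trimmed paired reads with SeqPrep and Sickle, aligned them with HISAT2, assembled transcripts with StringTie and quantified genes with RSEM; the submitters' processing notes name hg38. Versions and the annotation release are not given in the sources used here, and no step separating mouse from human reads was described. The authors deposited TPM, so depth per sample is unknown, and no counting interval or count model (the study used DESeq2) could be applied. Columns summed to 1000000 in 5 samples and 994381 in TM replicate 3. The 259 unannotated loci were left out of the fits.

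TPM was transformed as log2(TPM + 1), which understates changes of low genes. Testing covered the 13861 genes that reached 1 TPM in 3 or more of 6 samples, by limma 3.58.1 in R 4.3.3 with two-sided tests, no covariate, a mean-variance trend, with Benjamini-Hochberg adjustment over all of them and a threshold of 0.05. The fit was tested on simulated data. Sums, counts and medians over a list carry no test. Members and lists were chosen with earlier results of these data known. Values per sample are given for the 3 tested members with the highest mean in each class and for the 5 largest positive and 5 largest negative differences, and from each related list up to 4 genes with the smallest p-values are named. Positions, transcripts and coding sequences came from GENCODE v29 for 68 members, with 2 (H3C2, H3C3) placed by RefSeq symbol, and promoters from RefSeq (GRCh38.p14). Promoters were not at hand for H2AC12, H3C12, H3C11, H4C3 and H4C1. A stem-loop also had to hold at least 2 T in the first 3 loop bases. Figures were drawn with matplotlib 3.10.9.

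Results were recomputed after each of these changes: median-of-ratios rescaling; quantile normalization; TPM recomputed over nuclear protein-coding genes alone, or without mitochondrially encoded genes; a pseudocount of 0.1; a minimum mean of 5 TPM, or no minimum; blocking on the replicate number; empirical Bayes moderation in its robust form, or with no trend; omission of each sample in turn; and identical copies summed, which was chosen after the data were seen.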

Additional observations from a re-analysis of the deposited data

How the results depend on the processing

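The number of members called was 0 under every alternative, and 22 values of named members changed sign, against 256 that kept direction and side of the threshold. The count of members lower in TC below an unadjusted limma p of 0.05, 2 as reported, was 1 with a mean of at least 5 TPM, with quantile normalization, with median-of-ratios rescaling and without a trend, and 1 to 5 when samples were left out, with 5 without TC replicate 3. This count was 3 with no minimum, without mitochondrially encoded genes and over nuclear protein-coding genes, beside 9.79%, 16.9% and 16.8% of all tested genes. The count higher, 0 as reported, was 0 to 2 when samples were left out, with 2 without TM replicate 2. With the replicate number as a block these counts were 4 lower (11.4%) and 1 higher (2.86%), beside 12.1% and 1.73% of all tested genes. Over all tested genes the share lower was 15.4%, 8.11%, 6.70% and 13.6% in the first 4 alternatives and 9.73% to 16.8% when samples were left out, and the share higher without TM replicate 2 was 1.98%, beside 5.71% of members. The deviations of samples with the same number correlated at 0.21, -0.12 and -0.16. With 3 samples a group, such correlations cannot decide whether TC and TM samples with the same number came from one tumor. The H2B sum, 72.6 against 97.5 TPM, differed by -11.7 after median-of-ratios rescaling.

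Among single genes the log2 difference of H2AC18 was 0.071 with a pseudocount of 0.1, 0.089 with quantile normalization and 0.059 with median-of-ratios rescaling. For H2BC11 these 2 rescalings gave 0.080 and 0.065, for H2BC5 0.0094 and 0.0043, and for H3C3 0.17 and 0.18. Over the fits with one sample left out, the difference ranged from -0.088 to 0.49 for H1-2, from -1.18 to 0.58 for H2AC18, from -0.53 to 0.20 for H2BC11, from -0.19 to 0.43 for H3C2, from -0.32 to 0.30 for H3C3 and from -2.21 to 0.39 for H4C12. The cause of these changes was not tested. With 3 samples a group, unknown depth and values near 1 TPM for many members, a missing call does not show that levels were equal.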
